A study of Rattus norvegicus with 30 samples.

Results

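Fibroblast markers of activation and of the resting, progenitor state were followed in rat plantaris tendons after tenotomy and repair. The 8 genes were chosen by name, as listed in the deposited count table: Fap, Thy1, Pdpn, Cthrc1 and Lrrc15 as markers of activated fibroblasts (5 genes), and Cd34, Pi16 and Dpp4 as markers of progenitor or quiescent fibroblasts (3 genes). They are 8 of 13124 genes listed, and all 8 were among the 12558 genes kept after a filter on low counts. No expression value was used in this choice of names, although it was made with earlier results of these data known.

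Fibroblasts build and remodel the matrix of connective tissues. In uninjured tissue a population that expresses Cd34, Dpp4 and Pi16 lies in the loose sheaths and around vessels and is regarded as a reservoir of precursors, and in tendon such cells are found in the paratenon and between the fascicles. After injury, fibroblasts proliferate, migrate and lay down scar matrix, and those that do so express cell surface proteins such as Fap, Thy1, Pdpn and Lrrc15 and the secreted glycoprotein Cthrc1. None of these genes is particular to fibroblasts: Thy1 is also found on neurons and early T cells, Pdpn on lymphatic endothelium, Cd34 on blood vessel endothelium and Dpp4 on T cells.

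RNA came from the right plantaris tendon of 30 male Sprague Dawley rats, 3 months of age. Control rats (3 tendons) had no tenotomy and no test compound, and whether they were gavaged is not given in the sources used here. All other rats had a full tenotomy of the plantaris tendon on both sides with immediate suture repair, beside an intact Achilles tendon, and received GSK2894631A, an inhibitor of hematopoietic prostaglandin D synthase, or its vehicle by oral gavage 2 times a day. Tendons were taken 7 days (7D) after repair at 0, 2 or 6 mg/kg (5, 4 and 3 tendons) or 21 days (21D) after repair at 0, 2 or 6 mg/kg (5 tendons per dose), the 0 mg/kg groups being vehicle. The control group differs from the 0 mg/kg groups in surgery and suture together and possibly in gavage, and the share of each in a difference cannot be told apart.

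The counts assigned to the listed genes came to 12405741 to 49909374 per tendon. Levels are given as CPM (counts per 1000000 counts) with library sizes scaled by TMM, a method that sets the bulk of genes equal between libraries. The 24 genes of skeletal muscle fibres took up 19.8 to 27.9% of all counts in control and 0.00897 to 9.76% in repaired tendons, and the TMM factors were 0.599 to 0.788 and 0.950 to 1.10. Control replicate 4 stood apart from the other control tendons, with the largest muscle share, the smallest TMM factor and the lowest level of each of the 8 genes, so comparisons with control are also given without it. Genes of the fibroblast lineage at large (Col1a1, Col3a1, Dcn, Lum and others, 9 genes) summed to 14582 to 52214 CPM in control tendons, and markers of tenocytes (10 genes) to 2185 to 8302 CPM. In repaired tendons the fibroblast genes summed to 62441 to 119248 CPM, with no overlap, and the tenocyte markers to 2107 to 10554 CPM, with overlap. Col1a1 and Col3a1 weigh most in the fibroblast sum, with up to 2162509 and 2684266 counts in repaired tendons. In the tenocyte sum Prg4 and Thbs4 reached 139326 and 109451 counts there, while Chad had 1460 to 20405 counts in control and 34 to 1192 in repaired tendons. Both sums therefore say little of the other genes of their lists. As the tendons were measured in bulk, more cells of a type and more RNA per cell cannot be told apart. The p-values measure the spread between tendons of different rats.

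The sequence upstream of the start site was listed by RefSeq (build GRCr8, while counts were made on rn6) for 6 of the 8 genes, not for Thy1 and Cthrc1. The 250 bases before the start are shown for Fap and Dpp4, which encode related peptidases, lie side by side on chromosome 3 with Gcg as the only protein-coding gene between them, and passed in opposite directions between 7D and 21D, and for Lrrc15, the gene of the 8 with the largest log2 fold change at 7D 0 mg/kg. The Fap stretch is chr3:67616092-67616341 on the minus strand, that of Dpp4 chr3:67452423-67452672 on the minus strand, and that of Lrrc15 chr11:83974458-83974707 on the plus strand. Each is written 5′ to 3′ along its gene, and capitals mark matches to a searched motif.
Fap: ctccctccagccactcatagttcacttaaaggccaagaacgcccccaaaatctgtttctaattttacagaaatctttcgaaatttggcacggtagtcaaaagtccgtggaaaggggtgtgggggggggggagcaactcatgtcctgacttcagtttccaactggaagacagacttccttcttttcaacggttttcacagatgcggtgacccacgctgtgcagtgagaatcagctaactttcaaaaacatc
Dpp4: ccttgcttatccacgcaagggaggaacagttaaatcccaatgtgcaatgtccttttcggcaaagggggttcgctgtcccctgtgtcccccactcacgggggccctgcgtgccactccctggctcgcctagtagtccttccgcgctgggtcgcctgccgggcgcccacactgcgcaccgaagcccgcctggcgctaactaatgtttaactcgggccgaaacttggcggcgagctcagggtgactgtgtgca
Lrrc15: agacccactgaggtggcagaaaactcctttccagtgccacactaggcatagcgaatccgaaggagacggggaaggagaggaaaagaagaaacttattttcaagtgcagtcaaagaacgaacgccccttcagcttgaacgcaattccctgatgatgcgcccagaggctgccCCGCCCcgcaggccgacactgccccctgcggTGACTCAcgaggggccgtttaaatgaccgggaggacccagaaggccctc
On both strands, 5 motifs were searched, and their share among the 33469 promoter stretches of the same length was 6.34% for AP-1 (TGANTCA), 12.1% for TEAD (GGAATG), 14.5% for RUNX (TGTGGT), 12.9% for the TATA box (TATAAA) and 30.5% for the GC box (GGGCGG). In Lrrc15 the capitals are a GC box read on the other strand, starting 80 bases before the start site, and an AP-1 match starting 49 bases before it. Neither Fap nor Dpp4 held any of these letters, and their GC content was 47.2% and 62.4%, against 57.6% for Lrrc15. Pdpn held 3 GC boxes and Cd34 held 1, whereas Pi16 held no match.

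Compared to control tendons, all 5 activation markers were higher in each of the 6 repaired groups, by 2.04-fold for Fap to 75.1-fold for Lrrc15 at 7D 0 mg/kg. The progenitor markers were also higher in several repaired groups and lower in none. Across the 8 genes 6 were higher in the 7D 0 mg/kg group at an adjusted p under 0.05 (edgeR quasi-likelihood fit over all genes, adjusted after Benjamini and Hochberg), where 71.4% of all genes tested passed, 35.8% higher and 35.6% lower. In the 7D 2 mg/kg group 8 of 8 were higher, where 69.7% of all genes passed, 35.8% higher and 34% lower. In the 7D 6 mg/kg group 7 were higher, where 67.9% of all genes passed, 34.1% higher and 33.8% lower. In the 21D groups the count was 7 at each dose, where at 0 mg/kg 65.9% of all genes passed (32.2% higher, 33.7% lower), at 2 mg/kg 69.1% (33.8% higher, 35.3% lower) and at 6 mg/kg 64.1% (30.8% higher, 33.3% lower). The 6 comparisons share the same 3 control tendons and are not independent of each other. The median log2 fold change of the activation markers was 2.16 at 7D 0 mg/kg and 1.99 at 21D 0 mg/kg, that of the progenitor markers 1.03 and 0.63, and that of all genes 0.05 and 0.03. Without TMM scaling the median of all genes lay at 0.51 to 0.64 in the 6 groups, and 74.1 to 77.9% of all calls were higher in place of 48.0 to 51.3%, while all 5 activation markers still passed as higher in each group. Progenitor values also moved up under that setting, so that Cd34 (0.95, edgeR adjusted p = 0.000820) and Pi16 (1.57, edgeR adjusted p = 0.00699) at 7D 0 mg/kg, Pi16 at 7D 6 mg/kg (1.41, edgeR adjusted p = 0.0218) and Dpp4 at 21D 0 mg/kg (1.11, edgeR adjusted p = 0.0118) passed as well. The share of all genes that passed as higher under that setting is not reported here, so these marker calls are not set against it.

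**Figure D1:**
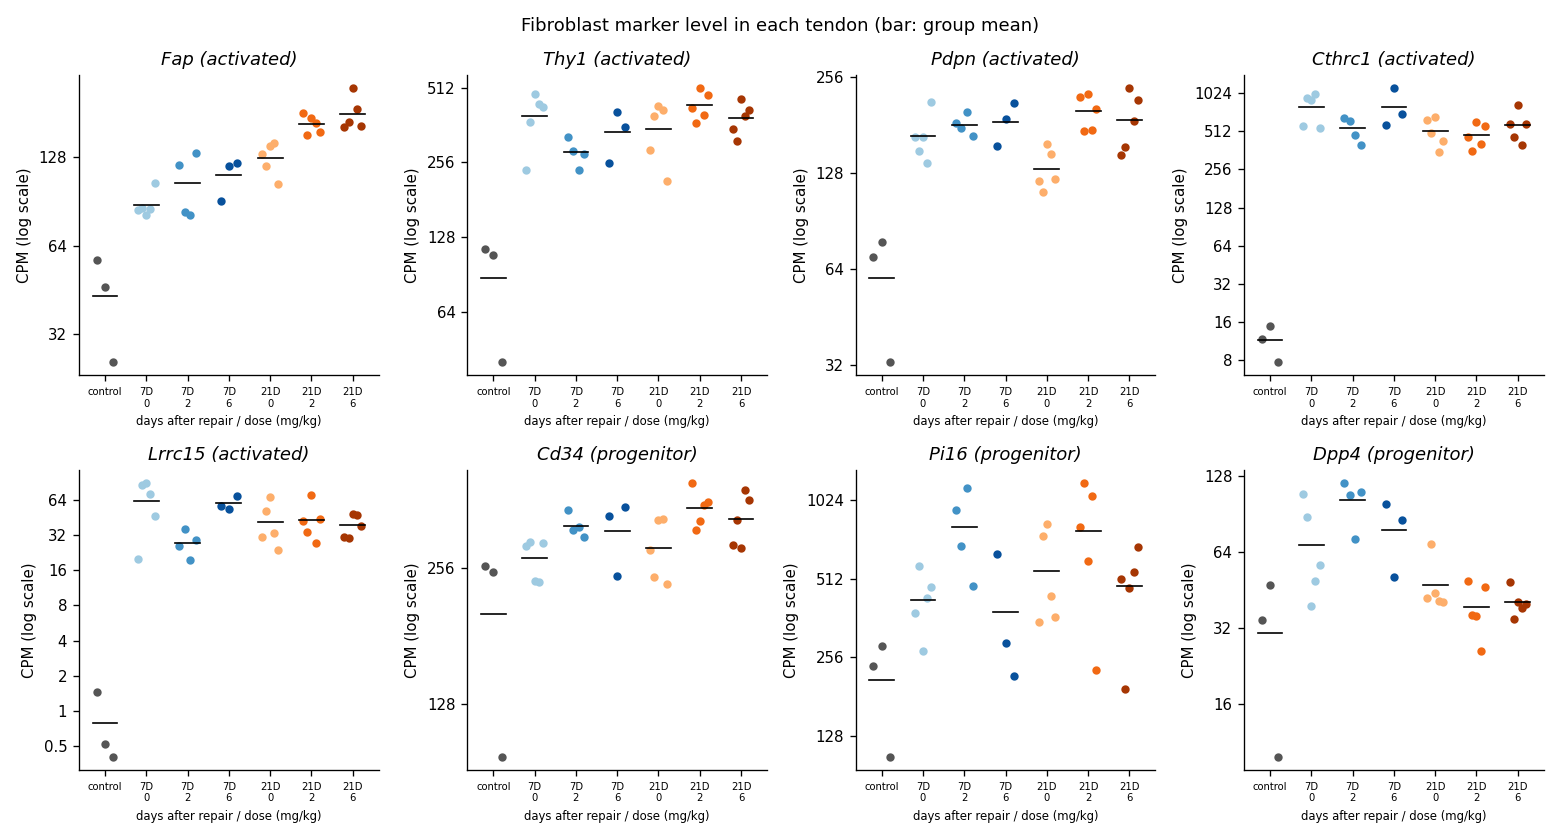
Level of each of the 8 genes (TMM-scaled CPM, log scale) in each tendon, by days after repair and dose, where a point is a tendon and a bar the group mean. For Fap, Thy1, Pdpn, Cthrc1 and Lrrc15 all 27 repaired tendons lie above the highest control tendon, while Cd34, Pi16 and Dpp4 overlap with control tendons.

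Cthrc1 (ENSRNOG00000004578, chromosome 7), a secreted glycoprotein of migrating, matrix-producing fibroblasts, was counted at 11.7, 14.9 and 7.76 CPM in control replicates 2, 3 and 4, from 95 to 372 counts. At 7D it was at 569, 940, 898, 1020 and 540 CPM with 0 mg/kg, at 656, 622, 480 and 401 CPM with 2 mg/kg and at 578, 1120 and 700 CPM with 6 mg/kg. At 21D it was at 627, 497, 661, 349 and 430 CPM with 0 mg/kg, at 462, 356, 602, 404 and 561 CPM with 2 mg/kg and at 586, 466, 834, 400 and 583 CPM with 6 mg/kg. The lowest repaired tendon, at 349 CPM, was far above the highest control tendon, at 14.9 CPM. The log2 fold change against control was 6.11 at 7D 0 mg/kg (69.0-fold, standard error 0.38, adjusted p = 6.54e-12, edgeR quasi-likelihood fit), and the lowest was 5.38 at 21D 2 mg/kg (41.5-fold, edgeR adjusted p = 6.15e-11). In order of their means the groups ran from control through 21D 2 mg/kg, 21D 0 mg/kg, 7D 2 mg/kg, 21D 6 mg/kg and 7D 0 mg/kg to 7D 6 mg/kg, and only the step from control to the next group was free of overlap.

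Lrrc15 (ENSRNOG00000038539, chromosome 11), a leucine-rich repeat membrane protein induced by TGF-beta in fibroblasts, was close to absent in control tendons, at 1.46, 0.521 and 0.408 CPM from 5 to 31 counts. At 7D it was at 19.9, 86.1, 88.6, 71.0 and 46.4 CPM with 0 mg/kg, at 25.7, 36.0, 19.6 and 28.8 CPM with 2 mg/kg and at 56.3, 53.5 and 69.0 CPM with 6 mg/kg. At 21D it was at 31.0, 51.6, 68.0, 33.6 and 23.7 CPM with 0 mg/kg, at 42.1, 34.0, 70.2, 27.2 and 43.5 CPM with 2 mg/kg and at 30.9, 30.1, 48.6, 47.5 and 37.9 CPM with 6 mg/kg. No repaired tendon fell into the control range, and replicate 1 of the 7D 0 mg/kg group was well below the other 4. The log2 fold change was 6.23 at 7D 0 mg/kg (75.1-fold, standard error 0.57, adjusted p = 1.22e-09, edgeR quasi-likelihood fit), and the lowest was 5.05 at 7D 2 mg/kg (33.2-fold, edgeR adjusted p = 2.56e-08). With so few control counts the 95% interval at 7D 0 mg/kg ran from 5.07 to 7.39 on the log2 scale. Means ran in the order control, 7D 2 mg/kg, 21D 6, 0 and 2 mg/kg, 7D 6 mg/kg and 7D 0 mg/kg, and all neighbours after control overlapped.

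Thy1 (ENSRNOG00000006604, chromosome 8), a GPI-anchored surface protein that binds integrins, was at 115, 108 and 40.3 CPM in control tendons. Its level at 7D was 240, 373, 482, 442 and 427 CPM with 0 mg/kg, 324, 286, 239 and 277 CPM with 2 mg/kg and 255, 410 and 355 CPM with 6 mg/kg. Its level at 21D was 288, 395, 431, 417 and 216 CPM with 0 mg/kg, 425, 370, 509, 398 and 481 CPM with 2 mg/kg and 349, 314, 461, 393 and 415 CPM with 6 mg/kg. All repaired tendons were above control tendons. Against control the log2 fold change was 2.16 at 7D 0 mg/kg (4.47-fold, standard error 0.29, adjusted p = 4.07e-07, edgeR quasi-likelihood fit) and lay between 1.68 and 2.31 over the 6 groups. The group means ran from control through 7D 2 mg/kg, 7D 6 mg/kg, 21D 0 mg/kg, 21D 6 mg/kg and 7D 0 mg/kg to 21D 2 mg/kg, with overlap at every step but that from control.

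Pdpn (ENSRNOG00000014961, chromosome 5), a mucin-type membrane glycoprotein that acts through ezrin and moesin on the cell cortex, was at 69.5, 77.3 and 32.7 CPM in control tendons. At 7D its level was 166, 150, 165, 138 and 213 CPM with 0 mg/kg, 183, 176, 198 and 167 CPM with 2 mg/kg and 156, 188 and 211 CPM with 6 mg/kg. At 21D its level was 121, 111, 157, 146 and 122 CPM with 0 mg/kg, 221, 173, 226, 174 and 203 CPM with 2 mg/kg and 145, 154, 235, 185 and 216 CPM with 6 mg/kg. The 21D 0 mg/kg tendons were the lowest repaired tendons on average and still did not overlap with control tendons. Its log2 fold change against control was 1.47 at 7D 0 mg/kg (2.77-fold, standard error 0.21, adjusted p = 1.48e-06, edgeR quasi-likelihood fit) and lay between 1.13 and 1.73 over the 6 groups. After 21D 0 mg/kg the means followed as 7D 0, 2 and 6 mg/kg and 21D 6 and 2 mg/kg, each overlapping with the next.

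Fap (ENSRNOG00000005679, chromosome 3), a membrane serine protease that cleaves after proline, was at 57.3, 46.1 and 25.8 CPM in control tendons. At 7D Fap stood at 84.6, 85.6, 81.1, 85.4 and 104 CPM with 0 mg/kg, at 120, 83.4, 81.4 and 132 CPM with 2 mg/kg and at 90.6, 119 and 122 CPM with 6 mg/kg. At 21D Fap stood at 130, 119, 139, 143 and 104 CPM with 0 mg/kg, at 180, 152, 174, 166 and 155 CPM with 2 mg/kg and at 161, 168, 218, 186 and 163 CPM with 6 mg/kg. The means followed the order of time and, within a time, of dose, from 43.1 ± 15.98 CPM (SD, n = 3) in control tendons to 179 ± 23.9 CPM (SD, n = 5) at 21D 6 mg/kg. Of these steps only those from control to 7D 0 mg/kg and from 21D 0 to 2 mg/kg were free of overlap between tendons. The log2 fold change against control was 1.03 at 7D 0 mg/kg (2.04-fold, standard error 0.19, adjusted p = 4.18e-05, edgeR quasi-likelihood fit), 1.56 at 21D 0 mg/kg (edgeR adjusted p = 3.63e-07) and 2.05 at 21D 6 mg/kg (4.15-fold, edgeR adjusted p = 1.43e-08).

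Cd34 (ENSRNOG00000045558, chromosome 13), a sialomucin of progenitor cells and vessels, was at 259, 251 and 97.9 CPM in control tendons. Cd34 at 7D was at 287, 294, 240, 239 and 291 CPM with 0 mg/kg, 345, 311, 316 and 300 CPM with 2 mg/kg and 334, 246 and 351 CPM with 6 mg/kg. Cd34 at 21D was at 281, 245, 328, 330 and 236 CPM with 0 mg/kg, 395, 312, 326, 354 and 359 CPM with 2 mg/kg and 289, 327, 285, 382 and 364 CPM with 6 mg/kg. Repaired tendons were close to the 2 higher control tendons, and 22 of 27 exceeded the highest. At 7D 0 mg/kg the log2 fold change of 0.41 did not pass the threshold (adjusted p = 0.0717, edgeR quasi-likelihood fit). In the other 5 groups it was between 0.49 and 0.78 and passed, with an edgeR adjusted p of 0.0388 at 21D 0 mg/kg and 0.00164 at 21D 2 mg/kg. Without control replicate 4 it was between 0.02 and 0.39, and only the 21D 2 mg/kg group passed the threshold (edgeR adjusted p = 0.0294). The calls at 7D 6 mg/kg and 21D 0 mg/kg were also lost without single repaired tendons, with 0.56 without 7D 6 mg/kg replicate 1 and 0.52 without replicate 5 (edgeR adjusted p = 0.0571 and 0.0755), and 0.49, 0.46 and 0.43 without 21D 0 mg/kg replicates 1, 3 and 4 (edgeR adjusted p = 0.0502, 0.0631 and 0.0833). At 7D 0 mg/kg the value passed without control replicate 2 (0.56, edgeR adjusted p = 0.0324) or 3 (0.62, edgeR adjusted p = 0.0212).

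Pi16 (ENSRNOG00000000525, chromosome 20), a peptidase inhibitor that marks fibroblasts of the adventitia, was at 236, 282 and 106 CPM in control tendons. Pi16 at 7D was at 377, 575, 271, 432 and 476 CPM with 0 mg/kg, 937, 684, 1140 and 479 CPM with 2 mg/kg and 638, 289 and 217 CPM with 6 mg/kg. Pi16 at 21D was at 350, 750, 828, 440 and 366 CPM with 0 mg/kg, 806, 1190, 599, 1070 and 228 CPM with 2 mg/kg and 511, 193, 474, 543 and 676 CPM with 6 mg/kg. It varied widely within groups, from 228 to 1190 CPM in the 21D 2 mg/kg group alone, and 23 of 27 repaired tendons were above the highest control tendon. Pi16 had a log2 fold change against control of 1.96 at 7D 2 mg/kg (standard error 0.51, adjusted p = 0.00147, edgeR quasi-likelihood fit), 1.90 at 21D 2 mg/kg (edgeR adjusted p = 0.00151), 1.39 at 21D 0 mg/kg (edgeR adjusted p = 0.0139) and 1.201 at 21D 6 mg/kg (edgeR adjusted p = 0.0310). It did not pass at 7D 0 mg/kg (1.03, edgeR adjusted p = 0.0545) or 7D 6 mg/kg (0.87, edgeR adjusted p = 0.136). The value at 7D 0 mg/kg lay close to the threshold and passed under several other settings, such as DESeq2 (1.003, adjusted p = 0.0328), while with the muscle share as a covariate it was 0.44 (edgeR adjusted p = 0.5677), and that at 7D 6 mg/kg was -0.36 (edgeR adjusted p = 0.839). Without control replicate 4 the 7D and 21D 2 mg/kg groups passed (1.59 and 1.52), and at 21D with 0 and 6 mg/kg the values were 1.02 (edgeR adjusted p = 0.1004) and 0.84 (edgeR adjusted p = 0.178). The 21D 6 mg/kg call was also lost without control replicate 2 (1.24, edgeR adjusted p = 0.0589) or 21D 6 mg/kg replicate 5 (1.05, edgeR adjusted p = 0.0685). At 7D 0 mg/kg the value passed without control replicate 3 (1.34, edgeR adjusted p = 0.0385) or 7D 0 mg/kg replicate 3 (1.16, edgeR adjusted p = 0.0398).

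Dpp4 (ENSRNOG00000030763, chromosome 3), a membrane peptidase that removes dipeptides from chemokines and incretins, was at 34.3, 47.2 and 9.97 CPM in control tendons. Dpp4 at 7D was at 108, 88.1, 39.3, 49.3 and 56.7 CPM with 0 mg/kg, 120, 107, 71.7 and 111 CPM with 2 mg/kg and 98.9, 51.0 and 85.3 CPM with 6 mg/kg. Dpp4 at 21D was at 42.2, 68.5, 43.9, 41.2 and 40.8 CPM with 0 mg/kg, 49.3, 36.0, 35.8, 26.1 and 46.4 CPM with 2 mg/kg and 48.7, 34.6, 40.6, 38.6 and 39.9 CPM with 6 mg/kg. At 7D 11 of 12 tendons were above the highest control tendon, and at 21D 3 of 15 were. The log2 fold change against control at 7D was 1.16, 1.74 and 1.36 with 0, 2 and 6 mg/kg (adjusted p = 0.00595, 0.000267 and 0.00362, edgeR quasi-likelihood fit), and at 21D it was 0.63, 0.34 and 0.40 and did not pass the threshold (edgeR adjusted p = 0.119, 0.397 and 0.322). Without control replicate 4 the 7D values were 0.69, 1.28 and 0.91, of which that at 0 mg/kg did not pass (edgeR adjusted p = 0.0701), and the 21D values were 0.16, -0.14 and -0.06. The 21D 0 mg/kg value passed without control replicate 3 (1.11, edgeR adjusted p = 0.0176). For Cd34, Pi16 and Dpp4 every pair of neighbours in the order of group means overlapped, control included.

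**Figure D2:**
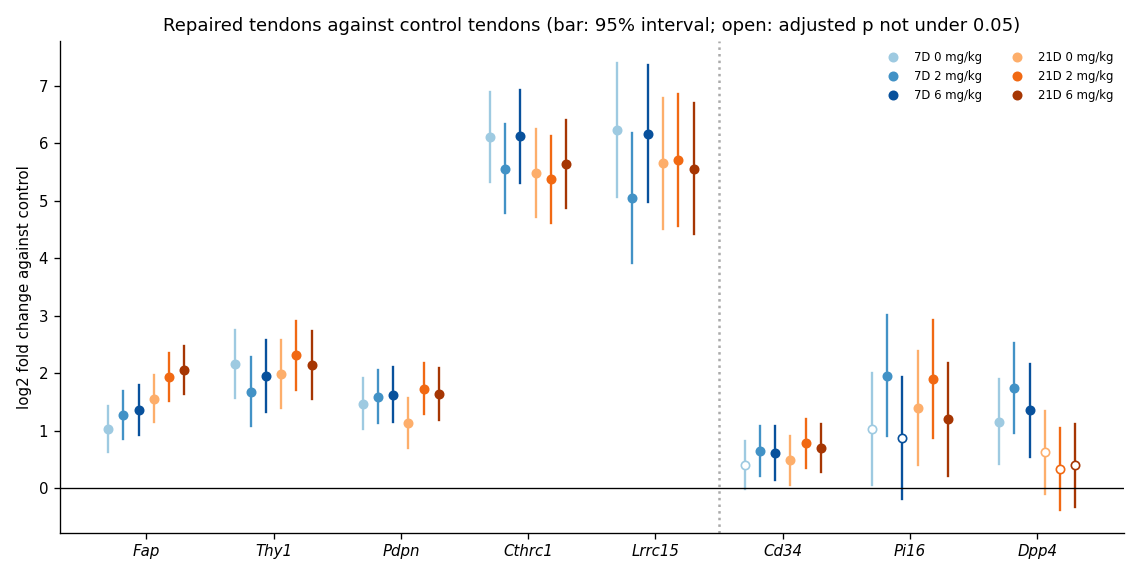
Log2 fold change of each repaired group against control tendons for the 8 genes, where points are estimates from edgeR, bars 95% intervals and open points values that did not pass an adjusted p of 0.05. Cthrc1 and Lrrc15 lie between 5.05 and 6.23, Fap, Thy1 and Pdpn between 1.03 and 2.31, and the 3 progenitor markers between 0.34 and 1.96.

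Without control replicate 4, all 5 activation markers remained higher in each of the 6 groups, whereas 0, 2, 1, 0, 2 and 0 of the 3 progenitor markers did, against 1, 3, 2, 2, 2 and 2 with it (groups in order of 7D and then 21D with 0, 2 and 6 mg/kg). With all tendons 8966, 8757, 8529, 8274, 8678 and 8054 of all genes were called in these groups. Over the fits leaving out 1 tendon, this one among them, the all-gene calls at 7D were 8314 to 8808, 8145 to 8574 and 7919 to 8441. At 21D they were 7426 to 8283, 7910 to 8505 and 7109 to 8014. In counts of genes with no overlap between tendons of the group and control, 5 of the 8 were above control at 7D 0 mg/kg (31.2% of all genes tested), 8 at 7D 2 mg/kg (30.1%), 6 at 7D 6 mg/kg (34.6%), 6 at 21D 0 mg/kg (25% of all genes), 6 at 21D 2 mg/kg (29.5%) and 6 at 21D 6 mg/kg (25.9%). With the log2 share of skeletal muscle counts as a covariate, all 5 activation markers stayed higher in the 7D 0 mg/kg and the 3 21D groups. In the 7D 2 and 6 mg/kg groups, where the muscle share was 0.00897 to 0.0119% and differed most from control tendons, only Cthrc1 and Lrrc15 passed, and Fap (1.02 and 1.11), Thy1 (0.75 and 1.03) and Pdpn (0.9995 and 1.04) kept a positive log2 fold change without passing. The covariate also cut the calls among all genes, from 8757 to 1367 at 7D 2 mg/kg and from 8529 to 1450 at 7D 6 mg/kg. Of the progenitor calls none was kept with this covariate in the 7D groups or at 21D 0 mg/kg, 2 of 2 were at 21D 2 mg/kg and 1 of 2 at 21D 6 mg/kg. Dpp4 at 7D 0 mg/kg was then at 0.98 (edgeR adjusted p = 0.0809), Cd34 at 21D 0 mg/kg at 0.52 (edgeR adjusted p = 0.0708), and Pi16 at 21D 0 and 6 mg/kg at 0.95 and 0.81 (edgeR adjusted p = 0.143 and 0.199). The muscle share did not overlap between control and repaired tendons, so a fit with this covariate cannot tell muscle RNA and repair apart. The part of muscle RNA in these differences was not tested.

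Between 7 and 21 days 3 of the 8 genes passed averaged over the doses, a share close to that of all genes. In that average Fap was higher at 21D than at 7D by 0.63 on the log2 scale (1.55-fold, 95% interval 0.42 to 0.84, adjusted p = 3.10e-05, edgeR quasi-likelihood fit). Dpp4 was lower at 21D, with a log2 fold change of -0.96 (standard error 0.18, edgeR adjusted p = 0.000216), and Cthrc1 was lower too, at -0.43 (standard error 0.15, edgeR adjusted p = 0.0270). Thus 1 of the 8 genes was higher, where 18.9% of all genes tested were, and 2 were lower, where 16.8% were (35.7% in either direction). Thy1 (0.22), Pdpn (-0.06), Lrrc15 (-0.18), Cd34 (0.10) and Pi16 (0.21) did not pass the threshold. Without TMM scaling 41.1% of all calls averaged over doses were higher in place of 52.9%, 42.7% in place of 53.9% at 0 mg/kg, and 50.9% in place of 65.2% at 6 mg/kg.

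At each dose by itself the 7D to 21D comparison has fewer tendons. At 0 mg/kg none of the 8 genes passed (5.35% of all genes did, 2.88% higher and 2.47% lower). An unadjusted p under 0.05 was reached by 2 of the 8 (Fap and Cthrc1) and by 2981 of the 12558 genes tested. DESeq2 called 1 of the 8 and 1496 of all genes. Nearest to the threshold in edgeR was Fap, at 81.1 to 104 CPM in 7D tendons and 104 to 143 CPM in 21D tendons. Its log2 fold change was 0.53 (adjusted p = 0.0525, edgeR quasi-likelihood fit), which passed without 21D 0 mg/kg replicate 2 (0.55, edgeR adjusted p = 0.0392). At 2 mg/kg 13.1% of all genes passed. Fap was higher (0.66, edgeR adjusted p = 0.0115), as were 7.09% of all genes, and Dpp4 was lower (-1.40, edgeR adjusted p = 0.00405), as were 5.98%. For both genes the 4 tendons at 7D did not overlap with the 5 at 21D, which held for 11.3% of all genes upwards and 5.93% downwards. Thy1 did not overlap either at this dose and missed the threshold (0.63, edgeR adjusted p = 0.0855), which it passed with the muscle share as a covariate (1.28, edgeR adjusted p = 0.0365) and in DESeq2 (0.64, adjusted p = 0.0423). At 6 mg/kg Fap was higher (0.70, edgeR adjusted p = 0.0160, 8.54% of all genes higher and 4.55% lower, 13.1% in all), with no overlap, as in 10.8% of all genes. Dpp4 (-0.96, edgeR adjusted p = 0.0602) and Lrrc15 (-0.61, edgeR adjusted p = 0.317) had no overlap downwards, as in 10.6% of all genes, and did not pass, although Dpp4 did without 7D 6 mg/kg replicate 4 (-1.19, edgeR adjusted p = 0.0499).

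**Figure D3:**
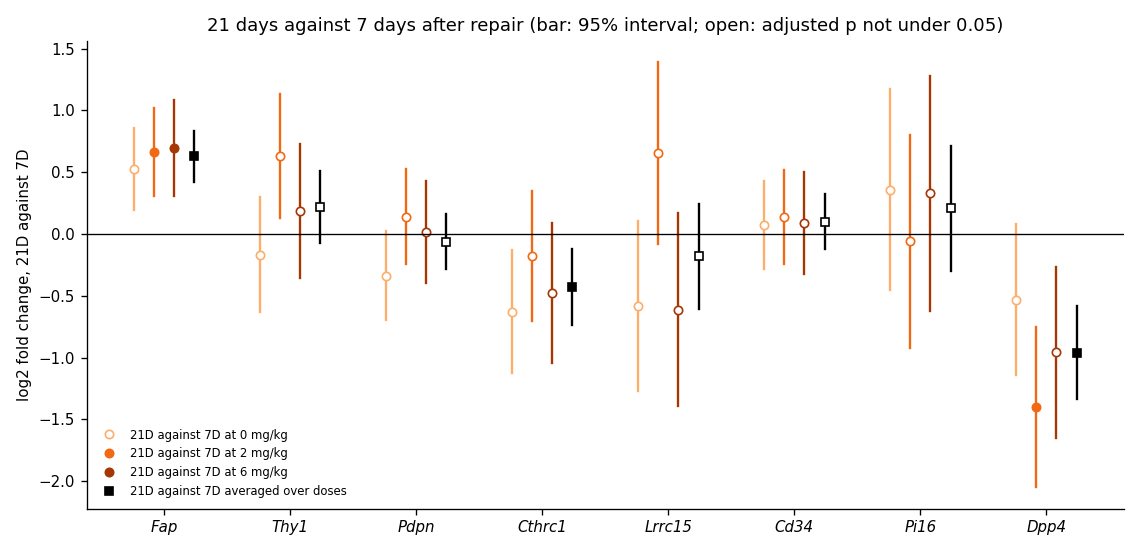
Log2 fold change of 21D against 7D tendons for the 8 genes at each dose and averaged over the doses, with 95% intervals, where open symbols did not pass an adjusted p of 0.05 in edgeR. The 4 Fap values lie between 0.53 and 0.70, the 4 Dpp4 values between -1.40 and -0.53, and Cthrc1 averaged over the doses is at -0.43.

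The muscle share of the counts also moved between the times, from 0.00897 to 1.32% at 7D to 0.0673 to 9.76% at 21D. With it as a covariate the value averaged over doses was 0.76 for Fap (edgeR adjusted p = 0.0229), -0.78 for Dpp4 (edgeR adjusted p = 0.192) and -0.25 for Cthrc1 (edgeR adjusted p = 0.650), so only Fap passed. The calls at single doses were lost with it, at 0.84 and 0.87 for Fap at 2 and 6 mg/kg (edgeR adjusted p = 0.0629 and 0.143) and -1.15 for Dpp4 at 2 mg/kg (edgeR adjusted p = 0.159). At these 2 doses the muscle share did not overlap between the times, so the fit cannot tell muscle share and time apart. Among all genes the covariate cut the calls from 4484 to 1266 averaged over doses and from 1643 to 275 at 6 mg/kg. Calls of 2 genes were lost when single tendons were left out. The Fap call at 6 mg/kg was lost without replicate 1 of the 7D group (0.57, edgeR adjusted p = 0.110), and the Cthrc1 call averaged over doses was lost without 7D 2 mg/kg replicate 2 (-0.39, edgeR adjusted p = 0.0513) or 7D 6 mg/kg replicate 4 (-0.32, edgeR adjusted p = 0.107).

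The balance of the markers within a tendon was taken as the mean log2 CPM of the 5 activation markers minus that of the 3 progenitor markers. It is a description, since its members were chosen together. It was -2.89 to -2.17 in control tendons and -1.19 to 0.69 in the 27 repaired tendons, with no overlap. Cthrc1 and Lrrc15 weigh most in this gap, with log2 fold changes against control of 5.05 to 6.23. Lrrc15 had only 5 to 31 counts in control tendons. For Fap, Thy1 and Pdpn the values were 1.03 to 2.31, a range that overlaps with 0.34 to 1.96 for the progenitor markers. The balance without Cthrc1 and Lrrc15 was not tested. The 7D 2 mg/kg tendons were the lowest repaired group, at -1.19 to -0.77, and the lowest tendon of the 7D 0 mg/kg group (-0.80) lay within that range. The other repaired groups overlapped with each other, while the 7D 2 mg/kg group did not overlap with any 21D group. Medians of all repaired groups were -0.08, -0.95 and 0.19 at 7D and -0.19, -0.32 and -0.06 at 21D for 0, 2 and 6 mg/kg. The ratio of Fap to Dpp4 CPM, used only to compare tendons with each other, was 0.978 to 2.59 in control, 0.778 to 2.34 in 7D and 1.74 to 6.36 in 21D tendons, and its median was 1.67, 1.16 and 3.65. Between the times the ratios overlapped at 0 mg/kg (0.782 to 2.06 at 7D and 1.74 to 3.48 at 21D) and not at 2 or 6 mg/kg. These genes were paired with their courses known, so the ratio restates their values.

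**Figure D4:**
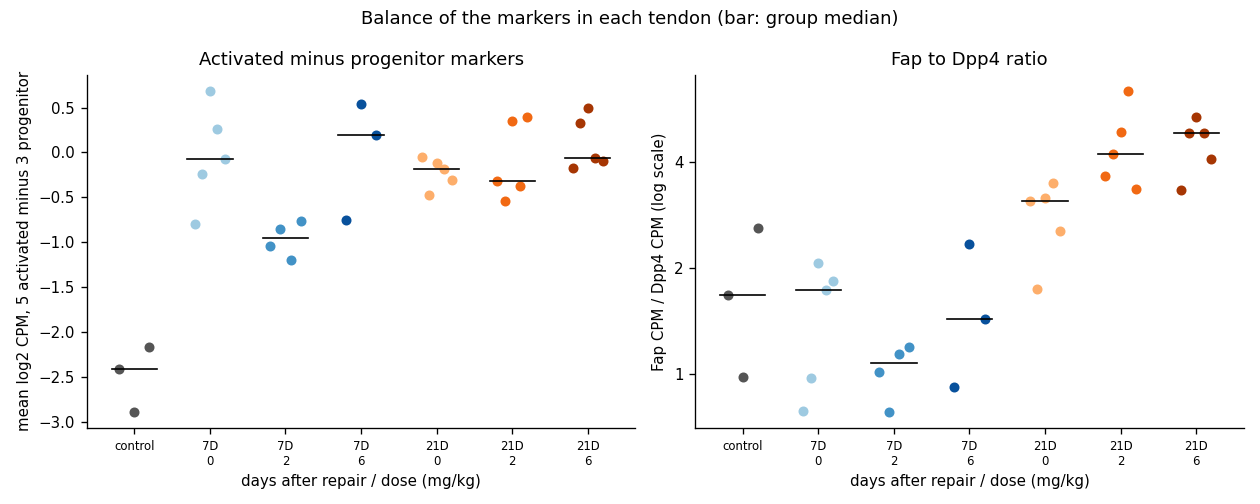
Left, mean log2 CPM of the 5 activation markers minus that of the 3 progenitor markers in each tendon; right, ratio of Fap to Dpp4 CPM (log scale). Points are tendons and bars group medians; the 3 control tendons lie at -2.89 to -2.17 on the left, below all repaired tendons, and the ratio is 1.74 to 6.36 in the 21D tendons on the right.

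GSK2894631A at either dose moved none of the 8 genes past an adjusted p of 0.05 in edgeR at 7D or 21D. Across all genes tested, 2.36% passed for 2 against 0 mg/kg at 7D (0.908% higher, 1.45% lower), 0.39% for 6 against 0 mg/kg at 7D and 0% for the other 4 pairs of doses. Of the calls for 2 against 0 mg/kg at 7D 38.5% were higher, and 27.99% without TMM scaling. At an unadjusted p under 0.05 the counts of the 8 genes were 3 for 2 against 0 mg/kg, 0 for 6 against 0 mg/kg and 2 for 6 against 2 mg/kg at 7D, and 2, 2 and 0 for the same pairs at 21D. Among all 12558 genes tested the counts for these pairs were 1942, 746 and 997 at 7D, and 1078, 810 and 1751 at 21D. DESeq2 called 1 of the 8, Lrrc15 for 2 against 0 mg/kg at 7D, where it called 710 of all genes. In an F-test over the 3 doses 0 of 8 passed at 7D (2.05% of all genes, 2 of 8 at an unadjusted p under 0.05) and 0 at 21D (0% of all genes, 2 unadjusted), and in the test of whether dose effects differed between the times 0 passed (0.39% of all genes, 1 unadjusted). Among all 12558 genes these 3 tests gave 1576, 1366 and 985 at an unadjusted p under 0.05.

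Lrrc15 came nearest. At 7D its 4 tendons with 2 mg/kg, at 19.6 to 36.0 CPM, lay below 4 of the 5 vehicle tendons, at 46.4 to 88.6 CPM, with the fifth at 19.9 CPM. The difference of 2 mg/kg from vehicle was -1.18 on the log2 scale (standard error 0.36, 95% interval -1.93 to -0.43, unadjusted p = 0.00333, adjusted p = 0.0869 in the edgeR quasi-likelihood fit). It passed without that vehicle tendon (-1.41, edgeR adjusted p = 0.0148), with the muscle share as a covariate (-1.65, edgeR adjusted p = 0.0369) and in DESeq2 (-1.18, adjusted p = 0.0193). With 6 mg/kg its level, 53.5 to 69.0 CPM, was not below that of vehicle tendons (-0.06, 95% interval -0.86 to 0.73) and did not overlap with 2 mg/kg (1.11 against 2 mg/kg, unadjusted p = 0.0101, adjusted p = 0.421 in edgeR), as in 5.22% of all genes.

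At 21D Pdpn was at 173 to 226 CPM with 2 mg/kg and at 111 to 157 CPM with vehicle, without overlap, as in 1.05% of all genes. Its log2 fold change was 0.60 (95% interval 0.24 to 0.96, unadjusted p = 0.00213, adjusted p = 0.388 in the edgeR quasi-likelihood fit), and with 6 mg/kg it was 0.51 (0.15 to 0.87, unadjusted p = 0.00772, adjusted p = 0.741). Fap did not overlap with vehicle at either dose at 21D. Its log2 fold changes were 0.38 with 2 mg/kg (0.05 to 0.71, unadjusted p = 0.0254, adjusted p = 0.516 in edgeR) and 0.50 with 6 mg/kg (0.17 to 0.83, unadjusted p = 0.00469, adjusted p = 0.741 in edgeR), where 0.693% of all genes had no overlap upwards. Pi16 at 7D was at 479 to 1140 CPM with 2 mg/kg and at 271 to 575 CPM with vehicle (0.93, unadjusted p = 0.0355, adjusted p = 0.277 in edgeR), with overlap. For the 6 genes other than Fap and Pdpn the 95% intervals of 6 against 0 mg/kg at 21D reached at most 0.66 above 0 (Cthrc1) and, downwards, -1.004 (Pi16) on the log2 scale.

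The same states were read from longer lists, chosen like the 8 genes with results of these data known. Of 32 further activation genes 24 were higher at 7D 0 mg/kg and 0 lower (median log2 fold change 2.10, all genes 0.05), where 35.8% of all genes were higher and 35.6% lower, and 22 were higher at 21D 0 mg/kg. Among the clearest at 7D were Mmp14, a membrane collagenase (4.48, standard error 0.32), Nox4, an oxidase induced by TGF-beta (2.34), and Timp1, an inhibitor of metalloproteinases (3.19), each with an adjusted p of 4.19e-09 or lower in the edgeR quasi-likelihood fit. Ctgf, a matricellular protein (0.35, edgeR adjusted p = 0.412), and Comp, a cartilage and tendon matrix protein (-0.15, edgeR adjusted p = 0.816), were the 2 farthest from passing. Averaged over doses 12 of the 32 were lower at 21D than at 7D and 4 higher (16.8% and 18.9% of all genes), and Timp1 was among those lower (-0.83, edgeR adjusted p = 7.98e-05).

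The 33 further resting and progenitor genes were split, with 13 higher, 6 lower and 14 not passing at 7D 0 mg/kg (median 0.46), where 35.8% of all genes were higher and 35.6% lower, and 17 higher and 4 lower at 21D 0 mg/kg, where 32.2% and 33.7% were. The share of the list that was higher at 7D 0 mg/kg was thus close to that of all genes. Limch1, an actin-associated protein, was lower, at 118 to 276 CPM in control and 22.0 to 41.4 CPM in 7D 0 mg/kg tendons (-2.72, adjusted p = 2.44e-09 in the edgeR quasi-likelihood fit), as was Tppp3, which marks stem cells of the tendon sheath (-1.78, edgeR adjusted p = 1.14e-08). Osr1, a transcription factor of connective tissue progenitors (1.82, edgeR adjusted p = 2.02e-06), and Ebf1 (1.11, edgeR adjusted p = 4.65e-06) were higher. Efhd1 (-0.10) and Hsd11b1, a glucocorticoid-activating enzyme (0.00), did not pass. From 7D to 21D 14 of the 33 were higher and 6 lower (18.9% and 16.8% of all genes), among them Tppp3 (1.46, edgeR adjusted p = 1.99e-09) and Limch1 (0.95, edgeR adjusted p = 1.56e-05), both higher. The summed level of this list was 11041 to 21962 CPM in control and 8720 to 14038 CPM in 7D 0 mg/kg tendons, with overlap. Gsn weighs most in the control sum, with 83639 to 340823 counts, followed by Igfbp6 with 9613 to 59125. The sum therefore says little of the other genes of the list.

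Of 9 genes of fibroblasts at large 8 were higher at 7D 0 mg/kg and 0 lower, where 35.8% of all genes were higher and 35.6% lower. Lum was at 78.7 to 274 CPM in control and 4102 to 5548 CPM in 7D 0 mg/kg tendons (4.86, adjusted p = 1.41e-10 in the edgeR quasi-likelihood fit), and Col3a1 (2.45), Pdgfrb (1.65) and Vim (1.32) followed, whereas Dcn did not pass (-0.15, edgeR adjusted p = 0.553). Of 10 tenocyte markers 1 was higher and 5 were lower in this comparison, beside the same shares of all genes. The clearest were Mkx (-4.10), Kera (-3.09), Chad (-5.74) and Fmod (-1.64). Prg4 (0.02) and Thbs4 (0.34) did not pass.

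**Figure D5:**
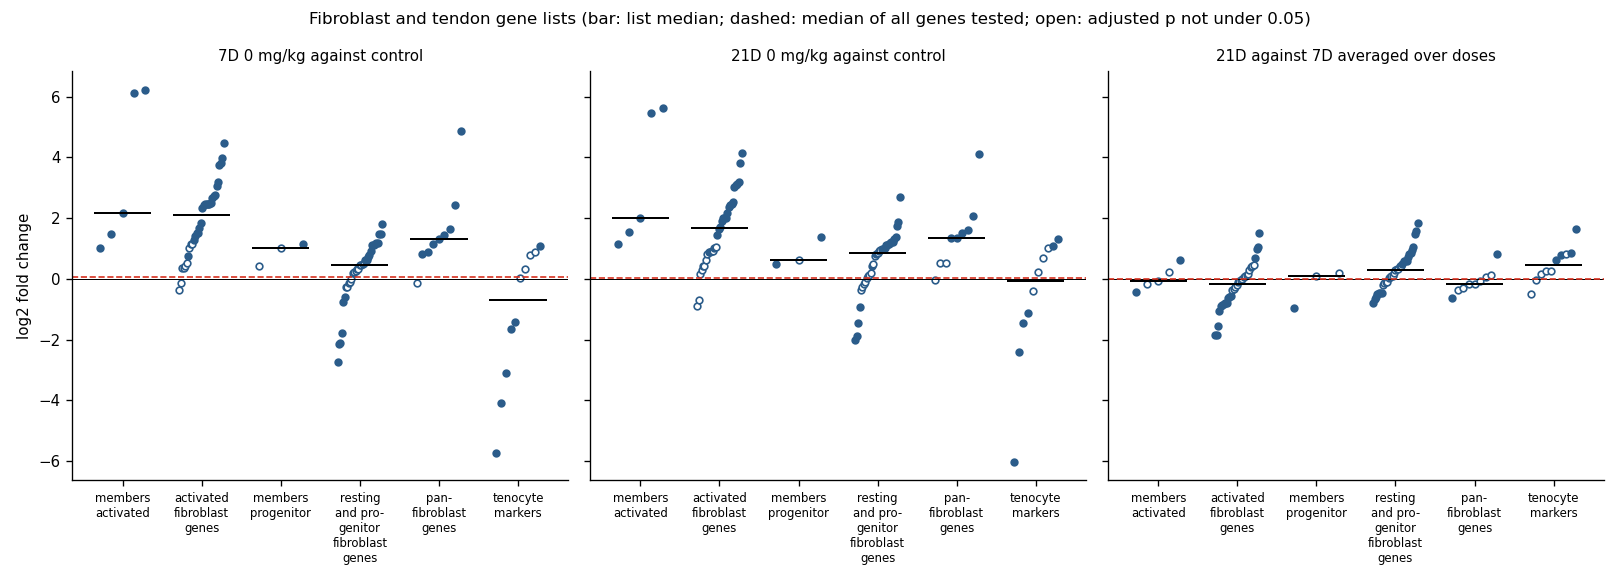
Log2 fold change of each gene of 6 lists at 7D 0 mg/kg and 21D 0 mg/kg against control tendons and at 21D against 7D averaged over doses, where open points did not pass an adjusted p of 0.05 in edgeR, solid bars are list medians and the dashed line is the median of all genes tested. Activation genes lie mostly above 0 against control, with medians of 2.16 (5 genes) and 2.10 (32 genes) at 7D 0 mg/kg, while resting and progenitor genes lie on both sides.

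Fap and Dpp4 belong to the prolyl peptidase family, of which 8 members were tested. At 7D 0 mg/kg 4 were higher, namely Prcp (1.69), Dpp4 (1.16), Dpp7 (1.15) and Fap (1.03), and 4 were lower, namely Prepl (-2.54), Dpp8 (-1.31), Prep (-0.64) and Dpp9 (-0.31), with an adjusted p of 0.00595 or lower for each in the edgeR quasi-likelihood fit. Of all genes 35.8% were higher and 35.6% lower in this comparison. From 7D to 21D, averaged over doses, Dpp4 (-0.96) and Prcp (-0.56, edgeR adjusted p = 2.39e-05) were lower, while Fap (0.63), Prepl (0.92), Dpp8 (0.30) and Dpp7 (0.26) were higher. In the sialomucin family of Cd34, Podxl2 was lower at 7D 0 mg/kg (-0.99, edgeR adjusted p = 0.000674), and Podxl was at 0.04 (edgeR adjusted p = 0.911).

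Of 27 genes for proteins that bind or act with the products of the 8 genes, 18 were higher, 2 lower and 7 did not pass at 7D 0 mg/kg (35.8% of all genes higher, 35.6% lower). Ada, the adenosine deaminase held at the surface by Dpp4, was at 15.2 to 15.4 CPM in control and 31.5 to 35.4 CPM in 7D 0 mg/kg tendons (1.13, adjusted p = 8.36e-10 in the edgeR quasi-likelihood fit). Ror2, a receptor tyrosine kinase to which Cthrc1 binds with Wnt proteins, was higher (2.82, edgeR adjusted p = 3.56e-09), whereas its ligand Wnt5a did not pass at 7D (0.30, edgeR adjusted p = 0.152) and was lower at 21D than at 7D (-0.88, edgeR adjusted p = 4.24e-07). Of the partners of Pdpn, Cd44 (2.53), Ezr (1.48) and Msn (1.41) were higher and Rdx was lower (-0.995, edgeR adjusted p = 2.90e-06), and its platelet receptor Clec1b varied too widely to pass (2.62, edgeR adjusted p = 0.111). Plaur, the urokinase receptor found with Fap in invading cells, was higher (2.19, edgeR adjusted p = 2.14e-06). Csk (1.36) and Fyn (1.196), kinases in the signalling of Thy1, were higher, and Cav1 was at 0.19 (edgeR adjusted p = 0.359). Selp, an adhesion receptor of platelets and activated endothelium, was higher (2.53, edgeR adjusted p = 8.02e-05). Among 10 genes of TGF-beta signalling, 4 were higher and 3 lower at 7D 0 mg/kg, close to the shares of all genes, with Tgfb1 (2.15) and Smad2 (0.68) higher and Tgfb2 (-1.78) and Smad3 (-1.64) lower, while Smad4 (0.06) and Tgfb3 (-0.12) did not pass.

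Markers of other cell types, some of which can express members of the 8, are set here against the 35.8% of all genes that were higher and 35.6% lower at 7D 0 mg/kg, and the 18.9% higher and 16.8% lower at 21D than at 7D. For T cells, which can carry Dpp4 and Thy1, 8 of 8 markers were higher at 7D 0 mg/kg and 7 at 21D 0 mg/kg, and 7 of 8 were lower at 21D than at 7D averaged over doses. Their summed level was 15.8 to 92.6 CPM in control, 108 to 303 CPM in 7D 0 mg/kg and 69.7 to 233 CPM in 21D 0 mg/kg tendons. Cd4 weighs most in this sum, with 141 to 1781 counts in control and 997 to 11811 in repaired tendons. The sum therefore says little of the other T cell markers, such as Cd3e with 0 to 26 and 13 to 369 counts. For blood vessel endothelium, which carries Cd34, 4 of 10 markers were higher at 7D 0 mg/kg and 0 at 21D 0 mg/kg, with sums of 298 to 913, 792 to 1239 and 593 to 1240 CPM, and Cdh5, its defining cadherin, did not pass (0.41, adjusted p = 0.327 in the edgeR quasi-likelihood fit). For lymphatic endothelium, which carries Pdpn, 0 of 6 markers were higher at 7D 0 mg/kg and 3 were lower, including Lyve1 (-1.17) and Prox1 (-1.27). For pericytes 2 of 8 were higher and 2 lower, for macrophages 6 of 9 were higher, for mast cells 1 of 8, and of 5 Schwann cell and nerve markers 0 passed. Of 24 skeletal muscle genes 24 were lower, and of 4 epithelial genes 1 was higher and 1 lower. The part of these cell types in the levels of the 8 genes was not tested.

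The genes whose pattern over the 7 group means was nearest to each of the 8 were found as those with the smallest root mean square difference of centred log2 CPM, among genes at 10 CPM or more on average. For Thy1 they were Cacnb3 (0.08), Pmaip1 (0.10) and Antxr1 (0.10), and for Pdpn Col14a1 (0.07), Pabpc1 (0.11) and Tusc3 (0.12). For Fap they were Kbtbd11, Adgrg2 and Dkk3 (0.14 each), and for Cthrc1 Cemip (0.28), Lum (0.39) and Spon1 (0.40). Lrrc15 also had Cemip, a hyaluronan-degrading protein, nearest (0.40), then LOC100911486 (0.41) and Ptprv (0.45). For Cd34 they were Snx7, March8 and Snx1 (0.05 each), for Pi16 Syt7 (0.04), Tmem100 (0.17) and Nptxr (0.18), and for Dpp4 Tmeff2 (0.06), Prkar2b (0.15) and Pde3b (0.16). These are likenesses of 7 means that share the same libraries, and with the largest Pearson correlation in place of the smallest difference 0 or 1 of the 3 names was shared for each gene.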

How the data were processed

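RNA from the right plantaris tendon of 30 rats in 7 groups was sequenced as single-end reads. The authors trimmed reads with fastp, aligned them with STAR to the rat genome rn6 and counted reads in exons of Ensembl genes, and the deposited counts are raw counts per gene, with no tool version given in the sources used here. The authors also deposited a table of their own edgeR comparisons (log2 fold changes, log2 CPM, p-values and false discovery rates). Of it only gene identifiers, chromosomes and gene widths were used here. The authors left out some tendons for read quality, and these were not analysed here. By the labels the 7D 6 mg/kg group holds fewer tendons than the methods imply, and the labels were followed.

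Counts were tested with edgeR 4.0.16 (limma 3.58.1, R 4.3.3) by a quasi-likelihood fit over all 30 tendons and 7 groups, with TMM scaling and no covariate, for 12558 of 13124 genes (mean of 3 CPM or more in at least 1 group). P-values were adjusted over these genes after Benjamini and Hochberg, and a call is an adjusted p under 0.05. Standard errors came from the F statistic. A prior count of 2 entered log2 CPM values. With 12405741 to 49909374 counts per tendon, 3 counts equal 0.0601 to 0.242 CPM. No library was a copy of another of its own group by a chi-square comparison of counts, and libraries of different groups were not compared in this way. Members and lists were chosen with earlier results of these data known. List genes were named as the 4 with the smallest and 2 with the largest adjusted p at 7D 0 mg/kg against control, and family members and partners by name, except that some list genes are not reported here. Alternatives were other scalings, filters, tools (DESeq2 1.42.0, limma-trend), samples in the fit, a replicate block, the log2 skeletal muscle share as covariate, a 1.5-fold rule and leaving out each tendon. The steps were tested on simulated data.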

Additional observations from a re-analysis of the deposited data

Results flagged for a closer look

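Of 40 combinations of a gene and a group with 4 or 5 tendons, 3 held a tendon whose gap to the nearest other tendon exceeded Dixon's 95% critical value. By chance alone about 1 in 20 combinations would exceed it. Fap in 7D 0 mg/kg replicate 5 was at 104 CPM, and the other 4 tendons were at 81.1 to 85.6 CPM. Pi16 in 21D 6 mg/kg replicate 2 was at 193 CPM, and the others were at 474 to 676 CPM. Dpp4 in 21D 0 mg/kg replicate 2 was at 68.5 CPM, and the others were at 40.8 to 43.9 CPM. Cause was not tested for any of the 3.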

How the results depend on the processing

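The 5 activation markers were above control in all 525 values computed under the alternatives, and 519 passed the threshold. The 6 exceptions were Fap, Thy1 and Pdpn at 7D 2 and 6 mg/kg with the muscle share as a covariate. Of 315 such values for the progenitor markers 197 passed and 3 were under 0. Of all 2632 values 56 changed sign, none of them a call.

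The numbers below are calls. With the muscle covariate they were 2 of the 8 genes and 1367 of all genes at 7D 2 mg/kg against control, 2 and 1450 at 7D 6 mg/kg, 301 of all genes for 21D against 7D at 0 mg/kg, 1 of the 8 at 2 mg/kg (Thy1, while Fap and Dpp4 were lost), and for both counts 0 and 275 with the 6 mg/kg dose, then 1 and 1266 averaged over doses. For doses it gave 1 and 1315 (2 against 0 mg/kg at 7D), 587 (6 against 0 at 7D), 3 (6 against 2 at 7D), 18 (6 against 2 at 21D), 872 (3 doses at 7D) and 616 (dose effect between times). DESeq2 gave 1 of the 8 and 1496 of all genes for 21D against 7D at 0 mg/kg. At 6 mg/kg it gave 2 of the 8, where the main fit called 1643 of all genes. Its calls for doses were 1 and 710 for 2 against 0 mg/kg at 7D, then 194, 69, 19, 1 and 254 for the other 5 dose pairs, 572 and 138 for the 3 doses at 7D and 21D, and 181 for the dose effect between times. RLE and TMM without muscle genes each gave 1 of the 8 at 0 mg/kg for 21D against 7D, where the main fit called 672 of all genes. The 1.5-fold rule gave 428 of all genes there and 1749 averaged over doses. Library size alone gave 0 of the 8 at 6 mg/kg, 3 for 6 against 2 mg/kg at 21D and 1 for the 3 doses at 21D. Limma-trend gave 76 for 6 against 0 mg/kg at 7D. A fit of only the groups compared gave 1 and 2 of the 8 for 21D against 7D at 0 and 6 mg/kg, and 94, 18, 1 and 31 of all genes for 6 against 0 at 7D, 6 against 2 at 21D, 3 doses at 21D and the dose effect between times. The cause was not tested.

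Same-numbered tendons of different groups correlated at -0.70 to 0.68 in their deviations from group means (76 pairs, median 0.00685, 29 over 0.1 and 25 under -0.1). The main fit did not pair tendons by number, and this spread cannot show whether tendons with the same number have anything in common. With a replicate block the calls were 2 of the 8 for 21D against 7D at 6 mg/kg, 1 for 2 against 0 mg/kg at 7D (Lrrc15, -1.22, edgeR adjusted p = 0.0426) and 1 for the 3 doses at 7D. The main fit called 1643, 296 and 258 of all genes in these 3 comparisons. Of all genes the block called 1 for 6 against 2 mg/kg at 7D and 28 for the dose effect between times. The block also called Pi16 at 7D 0 mg/kg against control (1.17, edgeR adjusted p = 0.0453), Thy1 for 21D against 7D with 2 mg/kg (0.72, edgeR adjusted p = 0.0449) and Dpp4 with 6 mg/kg (-0.95, edgeR adjusted p = 0.0313), and lost Cd34 in 21D vehicle tendons against control (0.497, edgeR adjusted p = 0.0544).

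Leaving out 1 tendon at a time, calls among the 8 genes were 5 to 8, 7 to 8 and 6 to 7 at 7D and 5 to 8, 7 and 5 to 7 at 21D against control (0, 2 and 6 mg/kg), 0 to 1, 2 and 0 to 2 for 21D against 7D at these doses, 2 to 3 averaged, 0 to 1 for 2 against 0 mg/kg and for the 3 doses at 7D, and 0 otherwise. Among all genes they were 8314 to 8808, 8145 to 8574 and 7919 to 8441 at 7D, 7426 to 8283, 7910 to 8505 and 7109 to 8014 at 21D, 203 to 1411, 953 to 1545, 795 to 1973 and 3926 to 4766 for 21D against 7D, 125 to 464, 0 to 60 and 0 to 3 for dose pairs at 7D, 0, 0 and 0 to 1 at 21D, 161 to 315 and 0 to 2 for the 3 doses, and 16 to 79 for the dose effect between times.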
